A study of Homo sapiens with 8 samples.

Results

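MYC-tagged UPF1 was expressed from a transfected plasmid in Huh7, a hepatocellular carcinoma cell line, and the transcriptome of these cells was set against that of cells given the vector with the MYC tag alone. Both groups were transfected with the same lipid reagent (Lipofectamine), so the controls had the reagent, the vector and the tag. Each group (MYC-UPF1 and MYC, where MYC stands for the tag vector) had 2 RNA-seq libraries, which are 4 of the 8 libraries of the series; the other 4 belong to an siRNA experiment. The genes described are all those with a mean of at least 0.5 FPKM (fragments per unit of transcript length and of library total) over the 4 libraries, 13251 of the 17076 genes in the table. At that limit, WDR78 with a mean of 0.5001 FPKM was just inside and LINC00622 with 0.4994 FPKM just outside. Transfection is transient and reaches a varying share of the cells, so a level is a mean over transfected and untransfected cells. Nothing in the labels says that the 2 libraries of a group came from separate cultures, so every p measures only the spread between these libraries, which may be technical.

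UPF1 is an ATP-dependent RNA helicase and the central factor of nonsense-mediated mRNA decay (NMD), the pathway that removes mRNAs whose translation ends too far upstream of an exon junction or of the poly(A) tail. Phosphorylation by SMG1 lets UPF1 recruit proteins such as SMG5 and SMG6 that start the breakdown of the mRNA. Beside faulty mRNAs, NMD limits many normal stress mRNAs, and UPF1 also serves other routes of decay such as that of histone mRNAs at the end of S phase.

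Liver markers were high in all 4 libraries. All 10 hepatocyte markers were in the table and tested, with AFP (alpha-fetoprotein) between 11093 and 12505 FPKM and ALB (albumin) between 7419 and 8372 FPKM. Of 10 immune markers, CD14, CD68 and LYZ were in the table, summing to 183.0 to 233.5 FPKM, nearly all of it from LYZ (177 to 227 FPKM). Of 10 fibroblast and endothelial markers, COL1A2, COL3A1, PDGFRB and PECAM1 were in the table, summing to 2.34 to 2.70 FPKM.

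UPF1 (GRCh37 chr19:18942768-18979039, plus strand) checked the labels. Its level was 45.1 and 57.4 FPKM in MYC 1 and 2, and 2834.5 and 2483.5 FPKM in MYC-UPF1 1 and 2. The mean went from 51.3 ± 8.65 FPKM (SD, n = 2) to 2659 ± 248 FPKM (SD, n = 2), 51.9-fold, and UPF1 then made up 0.581% to 0.625% of all FPKM of a library. The log2 difference on the log2(FPKM + 1) scale was 5.68 ± 0.11 (SE), with a limma adjusted p of 8.91e-09. Reads from the plasmid and from the endogenous gene cannot be told apart in these values.

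The libraries did not pair by group. Across genes, log2(FPKM + 1) correlated at 0.9944 between the 2 MYC libraries and at 0.9941 between the 2 MYC-UPF1 libraries, below the 0.9969 between MYC 1 and MYC-UPF1 2 and the 0.9964 between MYC 2 and MYC-UPF1 1. GC content moved with this. In the lowest of 10 bins of GC content (median 36.9%), the median deviation from a gene's own mean was 0.08 in MYC 1 and 0.12 in MYC-UPF1 2, and -0.11 in MYC 2 and -0.10 in MYC-UPF1 1. In the highest bin (median 64.3%) it was -0.06 and -0.10 in the first pair, and 0.14 and 0.01 in the second. The plot of GC content against library deviation shows MYC 1 and MYC-UPF1 2 sloping down together. Thus the 2 libraries of each group lay on opposite sides of this slope. The group difference still followed GC content, with a median log2 difference of 0.02 in the lowest bin and -0.08 in the highest. The part of the slope in the difference of any single gene was not tested beyond the fit with the trend removed.

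**Figure D1:**
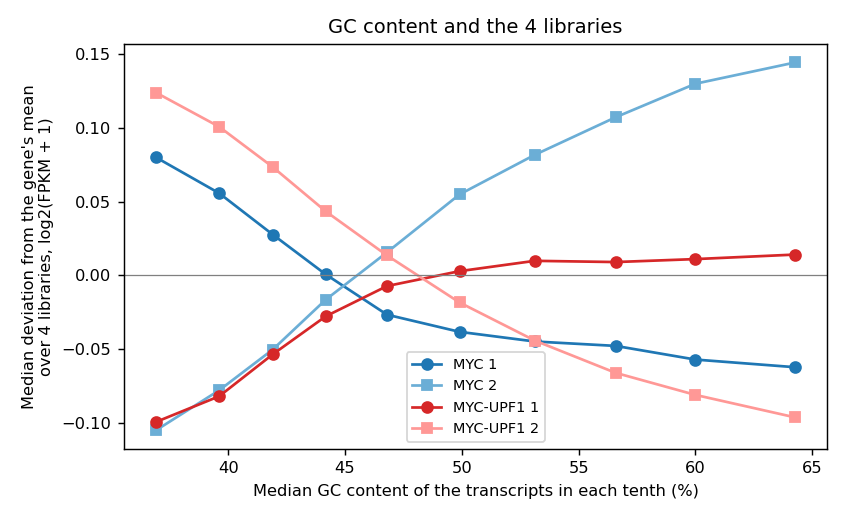
Median deviation of genes from their own mean over the 4 libraries (y axis, log2(FPKM + 1)) in 10 bins of transcript GC content (x axis, percent), 1 line per library. MYC 1 and MYC-UPF1 2 run from 0.08 and 0.12 in the lowest bin to -0.06 and -0.10 in the highest, and MYC 2 rises from -0.11 to 0.14.

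Few genes moved beyond the spread between libraries. At an unadjusted limma p under 0.05, the study's threshold, 82 genes rose, 0.619% of those tested, and 107 fell, 0.807%. Together they were 1.43% of the genes, below the 5% that such a threshold lets through by itself. Only UPF1 passed an adjusted p of 0.05, so "rose" and "fell" below refer to the unadjusted threshold. Beyond that, 1177 genes (8.88%) had both MYC-UPF1 libraries above both MYC libraries and 1563 (11.8%) had both below. The changes were small, with a median size of 0.38 for rises and 0.36 for falls on the log2 scale, and 4 rises and 0 falls reached 1. In the lowest bin of GC content 3 genes rose and 7 fell, and in the highest 4 rose and 21 fell, of 1277 in each. With each library's trend on GC content and transcript length removed, 234 genes rose and 199 fell. The share of rises among the calls thus went from a minority to a majority. Without MYC 1 the counts were 120 and 658, without MYC 2 they were 139 and 81, without MYC-UPF1 1 they were 174 and 297, and without MYC-UPF1 2 they were 102 and 123.

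Protein-coding genes other than readthrough genes (entries joining 2 neighbours) made up 31 of the 82 rises and 39 of the 107 falls. Among 11430 protein-coding entries 0.647% passed, against 20.75% of 159 microRNA entries, 13.04% of 207 snoRNA entries, 22.22% of 27 tRNA entries, 4.32% of 347 pseudogenes and 3.39% of 590 lncRNA entries. The median transcript length was 3286 bases for the first type, and 80 and 90 bases for microRNA and snoRNA entries. In all, 85 tested genes had a MYC mean under the 0.5 FPKM limit and a MYC-UPF1 mean at or above it, so they were tested only through MYC-UPF1. Of these, 16 rose, among them the protein-coding HSPA6 and SEC16B and, of the other entries named below, MIR6728, SNORA63E and UBE2F-SCLY. In the other direction, 80 genes were tested only through MYC, and 13 fell, among them CRIP2.

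After UPF1, the largest rises of protein-coding genes outside the readthrough entries were those of RASD1, HSPA6 and DUSP1. RASD1 (GRCh37 chr17:17397751-17399709, minus strand) encodes a Ras-like GTPase first described as induced by dexamethasone. It was at 1.42 and 2.43 FPKM in MYC and at 5.49 and 4.86 FPKM in MYC-UPF1. Both MYC-UPF1 libraries lay above both MYC libraries, 2.69-fold in the mean, with a log2 difference of 1.10 ± 0.17 (SE) and a limma adjusted p of 0.194. Leaving out each library gave 0.85 to 1.35, and RASD1 passed the unadjusted threshold in each of the 13 fits that tested it.

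HSPA6 (chr1:161494330-161496684, plus strand) encodes HSP70B′, an HSP70 chaperone that is nearly silent in unstressed cells and stress-inducible. Its level was 0.0845 and 0.152 FPKM in MYC and 1.07 and 0.915 FPKM in MYC-UPF1. Both MYC-UPF1 libraries lay far above both controls, and the ratio of the means was 8.41. The log2 difference was 0.83 ± 0.10 (SE), with a limma adjusted p of 0.0557, which MIR6728 shared as the lowest after UPF1. HSPA7, a near-identical copy, was at 0.0157 and 0.0153 FPKM in MYC and at 0.102 and 0.106 FPKM in MYC-UPF1, below the limit for testing. Reads may be split between both copies, so the HSPA6 level is uncertain to that extent.

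DUSP1 (chr5:172195099-172198198, minus strand) encodes the dual-specificity phosphatase MKP-1, which inactivates the MAP kinases JNK, p38 and ERK. It was at 6.23 and 6.83 FPKM in MYC and at 12.2 and 11.03 FPKM in MYC-UPF1. The groups did not overlap, and the mean was 1.78-fold higher. The log2 difference was 0.75 ± 0.12 (SE) with a limma adjusted p of 0.194, ranged from 0.68 to 0.81 when single libraries were left out, and passed the unadjusted threshold in all 14 fits.

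The promoters of DUSP1, HSPA6 and PPP1R15A, another stress gene that rose, are shown because they hold letters of known stress elements, whose use in these cells was not tested. They are RefSeq sequences on GRCh38.p14, from 250 bases before to 50 bases after the start, with capitals for the cyclic AMP response element (TGACGTCA), heat shock elements in either arrangement (GAANNTTC or TTCNNGAA) and the TATA box (TATAAA), searched on both strands. DUSP1 is chr5:172771146-172771445 (minus strand), HSPA6 chr1:161524290-161524589 (plus strand) and PPP1R15A chr19:48872171-48872470 (plus strand).
DUSP1 promoter: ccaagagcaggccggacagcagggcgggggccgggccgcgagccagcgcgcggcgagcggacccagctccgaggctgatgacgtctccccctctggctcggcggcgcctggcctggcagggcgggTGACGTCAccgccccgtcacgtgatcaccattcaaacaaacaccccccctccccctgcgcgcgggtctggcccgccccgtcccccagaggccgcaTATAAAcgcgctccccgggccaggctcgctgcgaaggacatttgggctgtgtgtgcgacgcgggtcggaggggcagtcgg
HSPA6 promoter: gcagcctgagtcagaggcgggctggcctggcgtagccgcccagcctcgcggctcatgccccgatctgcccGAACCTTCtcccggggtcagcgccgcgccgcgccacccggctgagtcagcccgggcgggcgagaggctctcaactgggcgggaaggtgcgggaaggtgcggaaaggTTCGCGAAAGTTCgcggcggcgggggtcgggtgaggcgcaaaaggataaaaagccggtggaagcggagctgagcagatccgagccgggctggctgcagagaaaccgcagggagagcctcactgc
PPP1R15A promoter: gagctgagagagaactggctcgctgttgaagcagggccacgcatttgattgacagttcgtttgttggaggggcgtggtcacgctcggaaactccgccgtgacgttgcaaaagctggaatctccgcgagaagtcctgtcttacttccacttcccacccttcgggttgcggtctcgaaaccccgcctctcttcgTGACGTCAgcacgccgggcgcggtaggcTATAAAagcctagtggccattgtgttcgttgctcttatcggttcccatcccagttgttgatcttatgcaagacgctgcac

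HSPA6 holds 3 heat shock matches, of which 2 overlap in the second run of capitals. Over the promoters of the 9816 tested genes with an entry, 3.34% hold the cyclic AMP element, 4.46% GAANNTTC, 5.85% TTCNNGAA and 5.66% the TATA box. Over all 27305 promoters of this length the shares are 1.98%, 6.87%, 7.84% and 11.95%. Of the 27 protein-coding genes that rose without overlap and have an entry, readthrough genes included, 2 hold the cyclic AMP element (DUSP1 and PPP1R15A). GAANNTTC is held by 4 (AGR2, HSPA6, SULT1A3 and SULT1A4), TTCNNGAA by 1 and the TATA box by 5. The 27 that rose include UPF1, whose reads from the plasmid and the endogenous gene cannot be told apart. The 27 that fell without overlap hold 1, 2, 1 and 4 in that order. Counts this small show neither a likeness nor a difference between rises and falls. RASD1 holds none of these in this window. A match is a run of letters and not a mapped site.

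Immediate early genes, which cells transcribe within minutes of a stimulus and whose mRNAs are short-lived, held 5 rises (19.2% against 0.619% of all genes) and 0 falls among 26 tested members. In 7 of them (26.9% against 8.88% of all genes) both MYC-UPF1 libraries lay above both MYC libraries. Their median log2 difference was 0.07, against -0.01 for all genes. Library by library the median deviation was -0.15 in MYC 1, 0.05 in MYC 2, 0.11 in MYC-UPF1 1 and -0.02 in MYC-UPF1 2, so MYC 1 stood lowest and the medians of the groups overlapped. With the GC and length trend removed 9 members rose. At a minimum of 5 FPKM, 2 of 15 rose and the median was 0.02. Without MYC 1 the median of the class changed sign to -0.02. It was 0.18 without MYC 2, 0.04 without MYC-UPF1 1 and 0.15 without MYC-UPF1 2, so the shift of the class rests on MYC 1.

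ATF3, a stress-induced transcription repressor, was at 3.02 and 3.76 FPKM in MYC and 4.94 and 5.48 FPKM in MYC-UPF1, a log2 difference of 0.50. KLF6, a zinc finger factor of growth arrest, was at 6.10 and 6.22 FPKM in MYC and 7.89 and 8.98 FPKM in MYC-UPF1 (0.40). KLF4, its relative in epithelial differentiation, went from 0.679 and 0.948 FPKM to 1.41 and 1.33 FPKM (0.39). In each of these genes the MYC-UPF1 libraries lay above both controls. FOS, the AP-1 subunit, was at 0.604 and 0.787 FPKM in MYC and 1.04 and 1.02 FPKM in MYC-UPF1 (0.26). PPP1R15A encodes GADD34, which lifts the translation block of the stress response by returning the phosphatase to eIF2. It was at 13.02 and 16.5 FPKM in MYC and at 19.6 and 17.2 FPKM in MYC-UPF1 (0.31), so MYC 2 and MYC-UPF1 2 nearly met. Other members stayed under the threshold: JUN, the partner of FOS, had 14.3 and 18.5 FPKM against 19.7 and 17.8 FPKM, with overlap, and EGR1 had 1.43 and 2.35 FPKM against 2.29 and 1.75 FPKM. Without MYC 1 the calls of KLF4 (0.29), FOS (0.19) and PPP1R15A (0.15) were lost. The call of KLF6 was lost without MYC-UPF1 2 (0.31), that of PPP1R15A also without MYC-UPF1 1 (0.22), and that of FOS without either MYC-UPF1 library (0.26 and 0.27). Without MYC 2, PPP1R15A stood at 0.47.

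**Figure D2:**
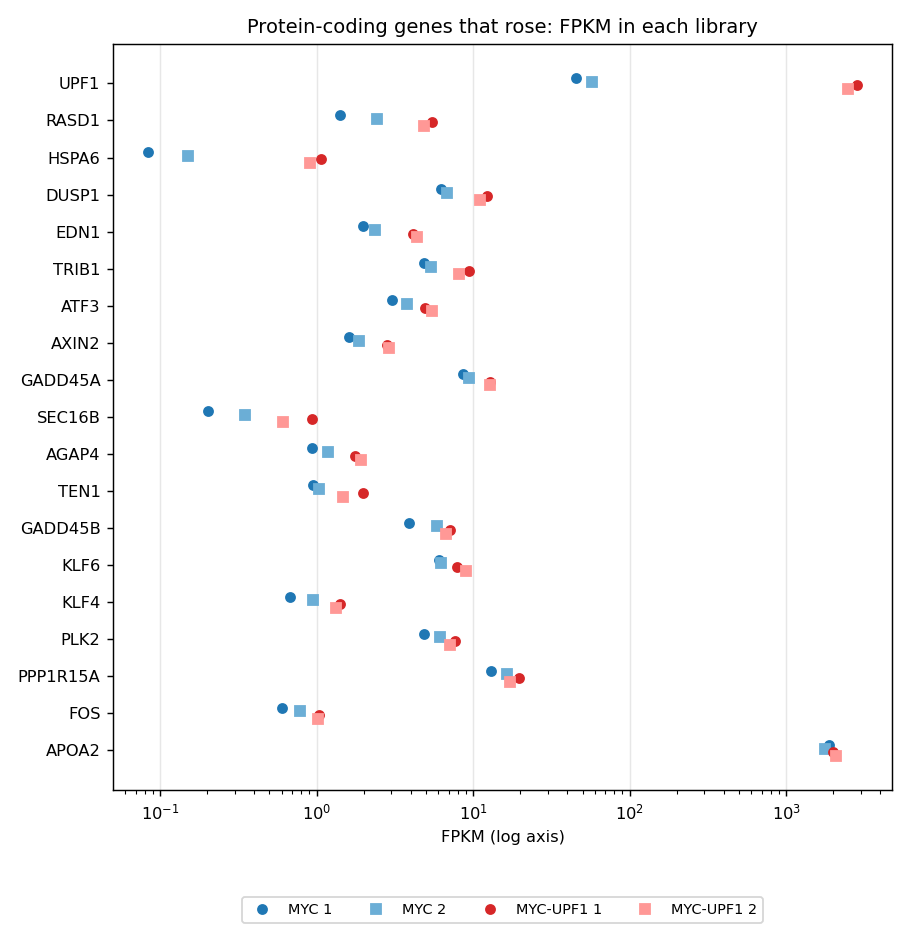
FPKM (x axis, log scale) of the protein-coding genes named among the rises, with 1 point per library and genes ordered by log2 difference. UPF1 stands apart at 2484 to 2835 FPKM in MYC-UPF1, and HSPA6 and SEC16B have controls below 0.5 FPKM.

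The other large rises came from genes of varied function. EDN1, the vasoactive peptide endothelin-1, was at 1.97 and 2.37 FPKM in MYC and at 4.11 and 4.36 FPKM in MYC-UPF1, 1.95-fold in the mean and with a log2 difference of 0.72 ± 0.13 (SE). TRIB1, a pseudokinase adaptor that directs proteins such as C/EBPα to degradation, was at 4.83 and 5.42 FPKM in MYC and at 9.45 and 8.10 FPKM in MYC-UPF1 (0.67 ± 0.13, SE). Both genes had clear gaps between the groups, and each passed the adjusted threshold in 2 of the 14 fits but not in the reported one. AXIN2, the feedback scaffold of the Wnt pathway, went from 1.61 and 1.86 FPKM to 2.81 and 2.89 FPKM (0.49), and AXIN1, its constitutive relative, stood at 4.85 and 5.52 FPKM against 5.25 and 4.71 FPKM, with overlap. SEC16B, an organizer of endoplasmic reticulum exit sites, had 0.202 and 0.352 FPKM in MYC and 0.929 and 0.609 FPKM in MYC-UPF1 (0.47). These genes kept the direction and the unadjusted call in every fit that tested them. AGAP4 had 0.940 and 1.18 FPKM against 1.75 and 1.91 FPKM (0.46). The readthrough entry PARGP1-AGAP4 went the other way, from 2.60 and 2.48 FPKM to 1.75 and 1.60 FPKM (-0.41), so the assignment of reads between both entries is uncertain. TEN1, a telomere-capping subunit whose locus is also part of a readthrough gene, had 0.946 and 1.04 FPKM against 1.99 and 1.48 FPKM (0.45).

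For NMD itself, 0 of the 14 factors other than UPF1 rose and 0 fell at the unadjusted limma p. Of these, 1 (SMG8; 7.14% against 8.88% of all genes) lay above without overlap and 0 below, and the median log2 difference lay 0.05 under that of all genes. Without MYC 1, 1 factor fell. UPF2, the adaptor that activates the helicase, was at 8.67 and 7.67 FPKM in MYC and 7.61 and 9.26 FPKM in MYC-UPF1. SMG1, the kinase, was at 9.72 and 8.11 FPKM against 6.95 and 10.97 FPKM, and the nuclease SMG6 at 3.30 and 3.95 FPKM against 3.57 and 3.01 FPKM. In all 3 genes the groups overlapped, and MYC 1 resembled MYC-UPF1 2 in UPF2 and SMG1. SMG5 stood at 74.2 and 83.3 FPKM in MYC against 76.9 and 71.5 FPKM. The 10 exon junction complex genes, which mark junctions for NMD, also had 0 calls, as had 15 UPF1 partners in other decay pathways, 42 decapping, deadenylation and exosome genes, and 37 SR proteins and hnRNPs.

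Of 27 tested transcripts described as sensitive to NMD, 4 rose (14.8% against 0.619% of all genes) and 0 fell. In 10 (37.04% against 8.88% of all genes) both MYC-UPF1 libraries lay above both MYC libraries, and in 0 both lay below, against 11.8% of all genes. The 4 that rose were ATF3 and PPP1R15A, which are also in the immediate early list, and the GADD45 growth arrest genes. GADD45A was at 8.59 and 9.37 FPKM in MYC and 12.8 and 12.8 FPKM in MYC-UPF1 (log2 difference 0.47), with the call kept in all 14 fits. GADD45B was at 3.90 and 5.86 FPKM in MYC and 7.14 and 6.71 FPKM in MYC-UPF1 (0.45). Without MYC 1 the value of GADD45B was 0.21 and its call was lost, and without MYC 2 it was 0.69. PPP1R15A, given above, lost its call without MYC 1 or MYC-UPF1 1. The number of rises was 2 without MYC 1, 4 without MYC 2, 3 without MYC-UPF1 1, 4 without MYC-UPF1 2 and 6 with the GC and length trend removed.

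The 6 other members that lay above without overlap did not pass the test. Among them were the snoRNA host RNAs GAS5 (129 and 133 FPKM in MYC, 138 and 154 FPKM in MYC-UPF1), ZFAS1 (35.4 and 37.8 against 40.7 and 41.6 FPKM) and SNHG5 (89.5 and 87.0 against 94.1 and 94.1 FPKM). These RNAs are spliced, hold short open reading frames and are cleared by NMD in many cells. ATF4, the translationally controlled factor of the amino acid response and the most abundant member, was at 193 and 201 FPKM in MYC and 206 and 204 FPKM in MYC-UPF1. The targets TBL2 (10.4 and 10.7 FPKM against 10.6 and 9.76 FPKM), BAG1 (4.97 and 5.89 FPKM against 5.50 and 5.26 FPKM), PEA15 (19.5 and 22.8 FPKM against 20.9 and 19.7 FPKM) and MAP3K14 (0.982 and 1.58 FPKM against 1.38 and 1.08 FPKM) had overlapping groups. Over all 20 snoRNA host transcripts tested, 7 (35.0% against 8.88% of all genes) lay above without overlap and 2 (10% against 11.8%) below, with 0 calls.

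**Figure D3:**
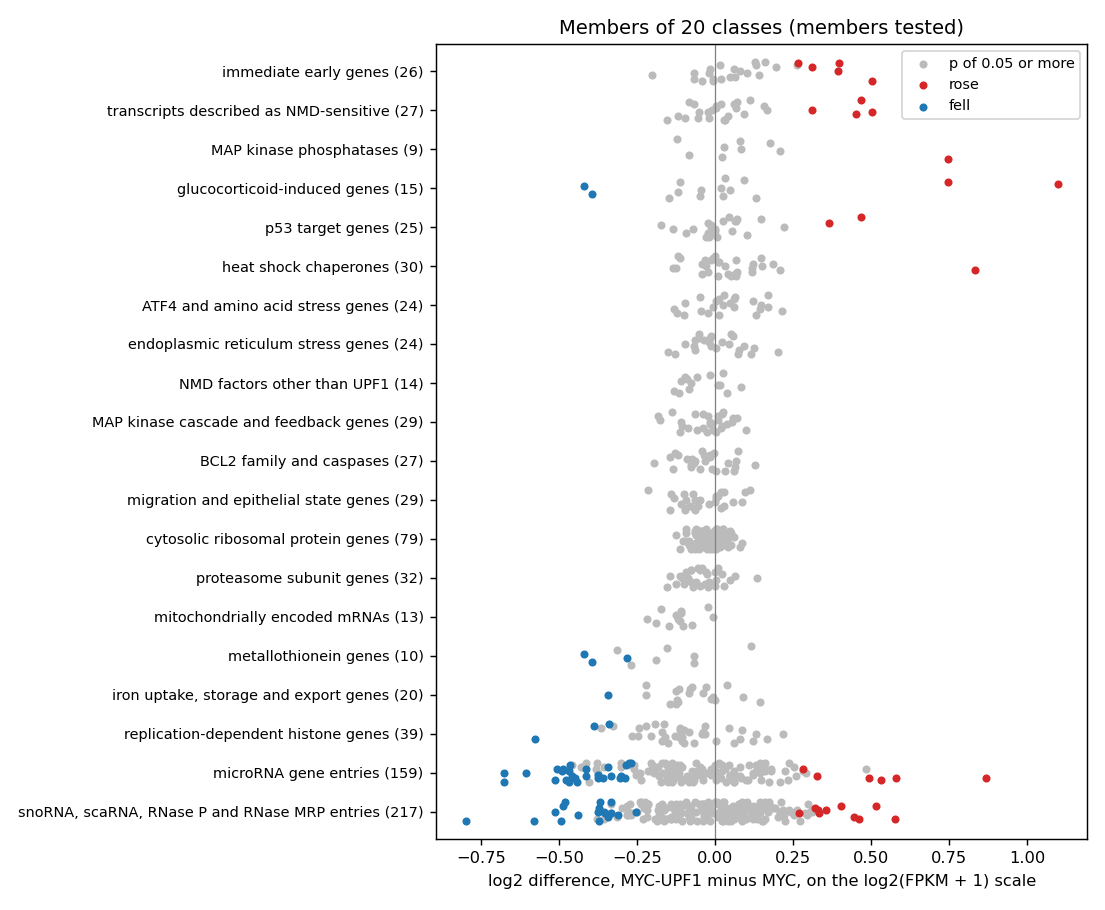
log2 difference of MYC-UPF1 minus MYC on the log2(FPKM + 1) scale (x axis) for each tested member of 20 classes (y axis, number of members in brackets), with red for rises and blue for falls at an unadjusted limma p under 0.05. Immediate early and NMD-sensitive transcripts hold 5 and 4 rises and 0 falls, and microRNA entries spread to both sides with 6 rises and 27 falls.

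Stress and signalling classes around the leading genes held few calls. Among 9 MAP kinase phosphatases DUSP1 was the single rise (11.1% against 0.619% of all genes). With DUSP10, DUSP16 and DUSP6, 4 of the 9 (44.4% against 8.88% of all genes) lay above without overlap and 0 below. The median log2 difference was 0.08, against -0.01 for all genes. DUSP1, the gene that the study follows up, was known to rise beforehand, so its place in these shares is not support for the class. Without MYC 1 the median was 0.01, and 1 rose and 1 fell. The differences of the other 3 were under the threshold, as in 19.6 and 19.7 FPKM in MYC against 21.1 and 20.6 FPKM in MYC-UPF1 for the ERK phosphatase DUSP6. The most abundant member, DUSP9, stood at 142 and 162 FPKM against 143 and 136 FPKM, with overlap. Of 29 genes of the MAP kinase cascade, 0 passed the test.

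Heat shock chaperones had 1 rise (3.33% against 0.619% of all genes) and 0 falls among 30. The rise was that of HSPA6, which was tested only through MYC-UPF1. At a minimum of 5 FPKM, 0 of 27 rose. In 6 of the 30 (20% against 8.88%) both MYC-UPF1 libraries lay above both MYC libraries, and in 2 (6.67% against 11.8%) both lay below. Constitutive HSPA8 stood at 745 and 753 FPKM in MYC and 756 and 751 FPKM in MYC-UPF1, and the co-chaperone DNAJB1 at 48.0 and 52.8 against 54.8 and 54.9 FPKM, without overlap but under the threshold. The 24 endoplasmic reticulum stress genes had 0 calls. The 24 ATF4 and amino acid stress genes also had 0 calls, with 8 (33.3% against 8.88% of all genes) above without overlap and 3 (12.5% against 11.8%) below. One of the 8, CHAC1, which degrades glutathione, went from 3.67 and 4.09 FPKM to 4.70 and 4.60 FPKM. The 12 interferon-induced genes, 22 NF-kB and acute phase genes, 28 hypoxia and glycolysis genes and 23 NRF2 and redox genes held 0 calls as well.

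Of 15 glucocorticoid-induced genes, RASD1 and DUSP1 rose, and MT2A and MT1X fell, 26.7% in all against 1.43% of all genes. RASD1 and DUSP1 were known to rise when the list was drawn up, so this share is not support for the class. The groups of MT2A overlapped, and both falls rested on MYC 2 and MYC-UPF1 2, as given below. SGK1, a kinase of the same response, stood at 34.1 and 36.4 FPKM in MYC against 40.2 and 37.2 FPKM, without overlap and under the threshold. Of 25 p53 target genes, GADD45A and PLK2 rose (8% against 0.619% of all genes) and 0 fell. PLK2, a polo-like kinase of the stress response, was at 4.89 and 6.19 FPKM in MYC and 7.66 and 7.12 FPKM in MYC-UPF1 (0.37), and lost its call without MYC 1 (0.22) or MYC-UPF1 1 (0.32). The remaining targets spread to both sides, with BAX, an activator of apoptosis, at 44.5 and 55.5 FPKM against 48.2 and 42.3 FPKM.

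Growth, death and migration classes held 0 calls. This covers 45 DNA replication genes, 47 mitosis genes, 28 cyclins and G1 regulators, 27 BCL2 family members and caspases, 30 TGF-beta pathway genes and 29 migration and epithelial genes. PCNA, the replication clamp, was at 115 and 110 FPKM in MYC and 114 and 115 FPKM in MYC-UPF1. MKI67, the proliferation antigen, was at 58.1 and 51.5 FPKM against 47.7 and 56.1 FPKM, with the MYC 1 and MYC-UPF1 2 libraries high. CDKN1B, the inhibitor p27, stood at 17.2 and 16.9 FPKM against 16.5 and 18.3 FPKM, and the oncogene MYC at 15.2 and 17.8 FPKM against 18.0 and 16.0 FPKM. The groups overlapped in all 4 genes. Among the migration genes, 8 of 29 (27.6% against 11.8% of all genes) lay below without overlap and 1 above. They include PLAU, the urokinase protease (0.769 and 1.05 FPKM against 0.727 and 0.560 FPKM), LAMB1, a laminin chain (80.1 and 82.4 against 73.6 and 78.1 FPKM), and CDH1, E-cadherin (14.2 and 14.3 against 13.2 and 13.3 FPKM). Without single libraries 0 to 3 of the 29 fell. ZEB1, a repressor of the epithelial state, was at 3.04 and 2.33 FPKM against 2.14 and 3.39 FPKM, and EZH2, the Polycomb methyltransferase, at 23.7 and 23.3 against 21.9 and 25.2 FPKM.

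**Figure D4:**
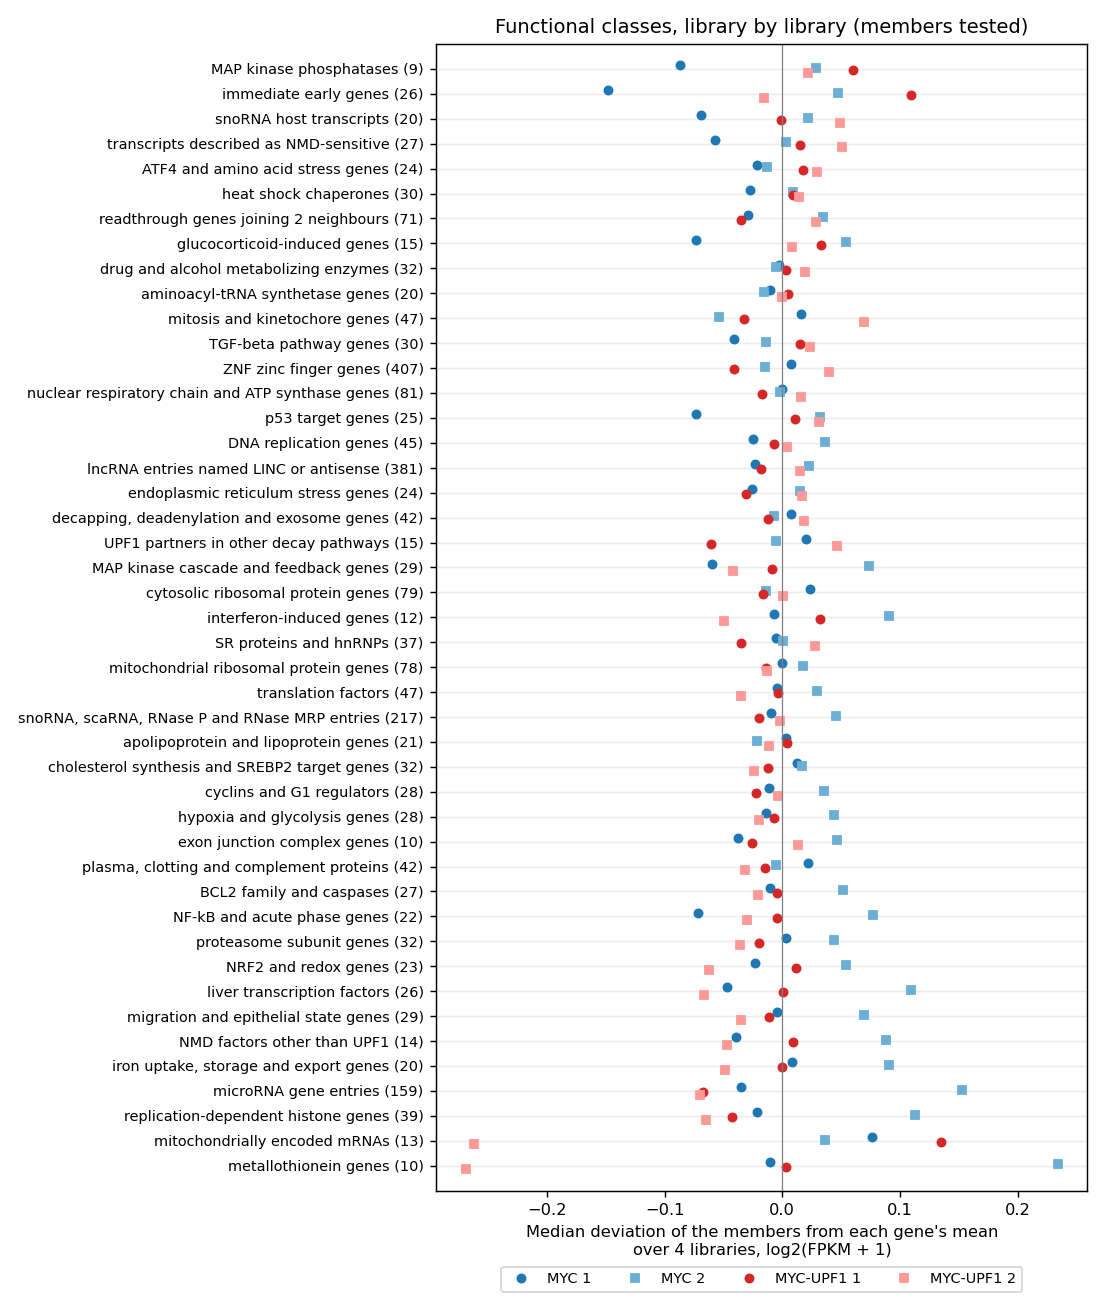
Median deviation of each class's members from their own mean over the 4 libraries (x axis, log2(FPKM + 1)), 1 point per library, classes ordered by median log2 difference with members tested in brackets. Metallothionein genes spread from -0.27 in MYC-UPF1 2 to 0.23 in MYC 2, and mitochondrially encoded mRNAs are low in MYC-UPF1 2 alone (-0.26).

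Translation and protein turnover genes held 0 calls. Of 79 cytosolic ribosomal protein genes, 27 (34.2% against 11.8% of all genes) lay below without overlap and 2 (2.53% against 8.88%) above. The median log2 difference was -0.02, within 0.01 of that of all genes. RPL19, with 1016 and 954 FPKM in MYC and 918 and 914 FPKM in MYC-UPF1, differed by more than most members (-0.10, against a lower quartile of -0.06 in the class). The most abundant member, RPS2, had overlapping groups (1692 and 1713 FPKM against 1693 and 1634 FPKM). Of 32 proteasome subunits 14 (43.75% against 11.8% of all genes) lay below without overlap and 2 (6.25% against 8.88%) above, with a median log2 difference of -0.05. PSMA7, an alpha subunit of the core particle, was at 255 and 271 FPKM in MYC and 232 and 244 FPKM in MYC-UPF1. Of 47 translation factors, 20 aminoacyl-tRNA synthetases, 78 mitochondrial ribosomal protein genes and 81 nuclear respiratory chain genes 0 were called.

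The 13 mitochondrially encoded mRNAs had 0 calls and 0 members without overlap, though their median difference was -0.11. MYC-UPF1 2 was the low library, with a median deviation of -0.26 against 0.08, 0.04 and 0.14 in MYC 1, MYC 2 and MYC-UPF1 1. COX1, the most abundant mRNA of the organelle, was at 17236 and 15409 FPKM in MYC and at 16549 and 13767 FPKM in MYC-UPF1. Without MYC-UPF1 2 the median of the 13 was 0.07 and 4 rose, and without MYC-UPF1 1 it was -0.32 and 11 fell, so the direction rests on MYC-UPF1 2.

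Liver classes held few calls. Of 42 plasma, clotting and complement genes and 26 liver transcription factors 0 were called. APOA2, the second apolipoprotein of HDL, was the only one of 21 apolipoprotein genes to rise. It was at 1873 and 1762 FPKM in MYC and 1998 and 2070 FPKM in MYC-UPF1 (0.16), and the call was lost without MYC 2 (0.12) or MYC-UPF1 2 (0.14). UGT1A1, the enzyme that conjugates bilirubin, was the only one of 32 drug-metabolizing enzymes to fall, from 1.304 and 1.40 FPKM to 0.874 and 0.724 FPKM (-0.39), in all 13 fits that tested it. It shares its later exons with the other UGT1A genes, so its reads are uncertain. DHCR7, the last enzyme of cholesterol synthesis, fell from 250 and 256 FPKM to 232 and 223 FPKM (-0.15). Of the 32 cholesterol genes 8 (25% against 11.8% of all genes) lay below without overlap and 2 (6.25% against 8.88%) above, and the DHCR7 call was lost without any 1 of the libraries (-0.18 to -0.13).

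Metal-handling genes contained the class with the lowest median. Metallothioneins, small cysteine-rich proteins that bind zinc and copper, had 3 falls (30% against 0.807% of all genes) and 0 rises among 10. In 2 (20% against 11.8% of all genes) both MYC-UPF1 libraries lay below both MYC libraries, and in 0 both lay above. The median log2 difference was -0.23. MT2A was at 43.3 and 58.2 FPKM in MYC and 45.1 and 30.7 FPKM in MYC-UPF1 (-0.42), with overlap between MYC 1 and MYC-UPF1 1. MT1X was at 17.4 and 23.2 FPKM against 16.6 and 13.6 FPKM (-0.40), and MT1E at 23.2 and 24.99 FPKM against 21.2 and 18.2 FPKM (-0.28). In all 3, MYC 2 was the highest library and MYC-UPF1 2 the lowest. Without MYC 2 or without MYC-UPF1 2 all 3 calls were lost and 0 members fell (MT2A -0.21 and -0.15, MT1X -0.20 and -0.26, MT1E -0.23 and -0.18), while without MYC 1 or MYC-UPF1 1 5 and 6 fell, with MT1X at -0.60 and MT2A at -0.69 respectively. These genes share long stretches of sequence, so reads may be split between copies.

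Of 20 iron genes 1 fell (5% against 0.807% of all genes) and 0 rose. In 5 (25% against 11.8% of all genes) both MYC-UPF1 libraries lay below both MYC libraries, and in 1 (5% against 8.88%) both lay above. The median log2 difference was -0.08, against -0.01 for all genes. HAMP, which encodes the liver's iron hormone hepcidin, was at 0.916 and 1.46 FPKM in MYC and 0.574 and 0.859 FPKM in MYC-UPF1 (-0.34), and its call was lost without MYC 2 (-0.16) or MYC-UPF1 1 (-0.22), while without MYC 1 the value was -0.52. FTL, the ferritin light chain and the most abundant iron gene, stood at 4544 and 4483 FPKM against 4225 and 4088 FPKM, without overlap and under the threshold.

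Replication-dependent histone genes, whose mRNAs end in a stem-loop in place of a poly(A) tail, held the largest fall of a protein-coding gene outside the readthrough entries. Of 39 tested, 3 fell (7.69% against 0.807% of all genes) and 0 rose. In the same list 15 (38.5% against 11.8% of all genes) lay below without overlap while 1 (2.56% against 8.88%) lay above. H2AC17 (chr6:27860477-27860963, minus strand) was at 2.13 and 1.95 FPKM in MYC and 1.15 and 0.929 FPKM in MYC-UPF1, a ratio of 0.510 and a log2 difference of -0.58 ± 0.12 (SE), and fell in all 13 fits that tested it. H3C3 was at 3.08 and 3.16 FPKM against 1.62 and 2.77 FPKM (-0.39), and H2BC4 at 3.43 and 3.56 FPKM against 2.51 and 2.58 FPKM (-0.34). In each the MYC-UPF1 libraries lay below both controls. H2BC12, the most abundant, stood at 193 and 210 FPKM against 190 and 183 FPKM, under the threshold. The call of H2BC4 was lost without any 1 library (-0.36 to -0.32), and that of H3C3 was lost without any but MYC-UPF1 2, with -0.13 without MYC-UPF1 1 and -0.65 without MYC-UPF1 2. The libraries were made with an mRNA kit that selects poly(A), so these levels are those of the polyadenylated fraction and of carried-over RNA, which cannot be told apart. The median GC content of the histone transcripts was 58.1% against 48.2% for all genes, and with the GC and length trend removed 2 of 36 fell.

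The stem-loops of the 3 histone mRNAs are shown because UPF1 is known to act on them through the stem-loop binding protein. Each was read from the single-exon GENCODE transcript on GRCh37, with the 16 bases of the loop in capitals. H2AC17 is chr6:27860482-27860497 (minus strand), H2BC4 chr6:26123700-26123715 (minus strand) and H3C3 chr6:26046077-26046092 (plus strand).
H2AC17: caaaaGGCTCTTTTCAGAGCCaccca
H2BC4: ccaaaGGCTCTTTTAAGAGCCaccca
H3C3: gaaaaGGCTCTTTTCAGAGCCactca

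All 36 tested histone genes with a single-exon transcript hold such a loop, and in 34 it lies within 11 bases of the annotated end. The genes that fell and those that did not thus share this element.

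Small RNA entries were called at a higher share than all genes. Of 159 microRNA gene entries 6 rose and 27 fell, 20.75% in all against 1.43% of all genes. In 36 (22.6% against 11.8%) both MYC-UPF1 libraries lay below both MYC libraries, and in 12 (7.55% against 8.88%) both lay above. These entries are hairpins with a median of 80 bases inside longer transcripts, and an mRNA library is not made to hold mature microRNAs, so a value reflects reads of the surrounding transcript. By library, the median deviation was -0.04 in MYC 1, 0.15 in MYC 2, -0.07 in MYC-UPF1 1 and -0.07 in MYC-UPF1 2. Their median GC content was 59.7% over the 79 entries that have a value. With the GC and length trend removed, 9 of these 79 rose and 13 fell, and their median was -0.04. Without MYC 2, 18 rose and 22 fell and the median was 0.00. Without MYC 1, 7 rose and 46 fell, without MYC-UPF1 1 15 and 37, and without MYC-UPF1 2 13 and 35.

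The 4 entries with the lowest p were MIR6728, MIR6832, MIR122 and MIR3605. MIR6728 rose from 0.371 and 0.261 FPKM to 1.46 and 1.34 FPKM (0.87), and passed the FPKM limit only through MYC-UPF1. MIR122, which codes for the dominant microRNA of hepatocytes, rose from 0.784 and 0.902 FPKM to 1.66 and 1.53 FPKM (0.49). MIR6832 fell from 1.19 and 1.74 FPKM to 0.631 and 0.439 FPKM (-0.68), and MIR3605 from 1.24 and 1.38 FPKM to 0.530 and 0.791 FPKM (-0.48). All 4 were called in each fit that tested them, and none of their groups overlapped. The 5p mature sequences from RefSeq (GRCh38.p14, 148 of the 159 entries matched) are given with the seed, bases 2 to 8, in capitals. They show that the 4 share no seed.
hsa-miR-6728-5p: uUGGGAUGguaggaccagagggg
hsa-miR-122-5p: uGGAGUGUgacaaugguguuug
hsa-miR-6832-5p: aGUAGAGAggaaaaguuaggguc
hsa-miR-3605-5p: uGAGGAUGgauagcaaggaagcc

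Of 217 snoRNA, scaRNA, RNase P and RNase MRP entries, 10 rose and 18 fell, 12.9% in all against 1.43% of all genes. In 32 (14.7% against 8.88%) both MYC-UPF1 libraries lay above both MYC libraries, and in 39 (18.0% against 11.8%) both lay below. RMRP, the RNA of RNase MRP, was at 2.26 and 1.24 FPKM in MYC and 0.389 and 0.736 FPKM in MYC-UPF1 (-0.80), and -0.53 without MYC 1. SNORD42A fell from 2.46 and 2.71 FPKM to 1.54 and 1.26 FPKM (-0.58), and SNORA63E rose from 0.428 and 0.416 FPKM to 1.40 and 0.874 FPKM (0.58). The calls went from 24 rises and 16 falls without MYC 2 to 13 and 36 without MYC 1.

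Readthrough genes held 3 rises and 4 falls among 71, 9.86% in all against 1.43% of all genes. These included the largest rise after UPF1 and the largest fall. BLOC1S5-TXNDC5 differed by more (1.87) but was not called, and its difference came from MYC-UPF1 1 alone. It was at 0.0240 and 0.0247 FPKM in MYC and at 12.6 and 0.0339 FPKM in MYC-UPF1. UBE2F-SCLY was at 0.866 and 0.0347 FPKM in MYC and 3.31 and 2.52 FPKM in MYC-UPF1 (1.49), and ABHD14A-ACY1 at 1.64 and 2.16 FPKM against 0.432 and 0.678 FPKM (-0.90). COMMD3-BMI1 had 1.48 and 0.0824 FPKM in MYC and 3.57 and 1.88 FPKM in MYC-UPF1 (1.15), with 1.74 without MYC 1 and 0.55 without MYC 2. In UBE2F-SCLY and COMMD3-BMI1 the 2 MYC libraries lay far apart, and the division of reads between such an entry and its parent genes is uncertain. Of 381 lncRNA entries named LINC or antisense 7 rose and 4 fell, 2.89% in all against 1.43% of all genes. Among them HNF4A-AS1, antisense to a liver master regulator, rose from 0.503 and 0.617 FPKM to 0.889 and 1.07 FPKM (0.34), a call lost without MYC 1 (0.29) or MYC-UPF1 2 (0.28). Of 407 ZNF genes, ZNF524 alone fell (-0.28), and lost its call without any 1 library (-0.35 to -0.21).

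The remaining large falls of protein-coding genes belonged to no common list. PDLIM2, an adaptor that targets NF-kB p65 to degradation, fell from 2.997 and 2.80 FPKM to 1.80 and 1.94 FPKM (-0.44) and kept its call in all 13 fits that tested it. NPFF, a neuropeptide precursor, fell from 3.09 and 3.16 FPKM to 2.29 and 1.79 FPKM (-0.44), and PDE4DIP, a centrosomal and Golgi scaffold, from 9.75 and 9.92 FPKM to 7.20 and 7.88 FPKM (-0.34). In these the groups lay apart, and the calls of NPFF and PDE4DIP were lost only without MYC-UPF1 2 (-0.33) and MYC-UPF1 1 (-0.29) among the left-out libraries. RAPH1, the actin regulator lamellipodin, fell from 5.35 and 6.87 FPKM to 5.04 and 3.65 FPKM (-0.42), and lost its call without MYC 2 (-0.26) or MYC-UPF1 2 (-0.23). PRR22 fell from 4.34 and 5.04 FPKM to 3.80 and 3.02 FPKM (-0.37), also lost without MYC 2 (-0.28) or MYC-UPF1 2 (-0.24). ANKHD1 fell from 11.9 and 11.6 FPKM to 10.3 and 7.42 FPKM (-0.39), and its readthrough entry ANKHD1-EIF4EBP3 rose from 3.96 and 4.39 FPKM to 4.63 and 8.67 FPKM (0.51), so reads may have passed from 1 entry to the other. Both moved most in MYC-UPF1 2, without which the calls were lost (-0.18 and 0.12), and without MYC-UPF1 1 the values were -0.60 and 0.90. FAM229A, from 1.93 and 1.92 FPKM to 1.58 and 0.930 FPKM (-0.39), likewise lost its call without MYC-UPF1 2 (-0.18) and stood at -0.60 without MYC-UPF1 1. CRIP2, a LIM domain protein, fell from 0.668 and 1.23 FPKM to 0.518 and 0.479 FPKM (-0.36), with -0.15 and no call without MYC 2 and -0.57 without MYC 1.

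**Figure D5:**
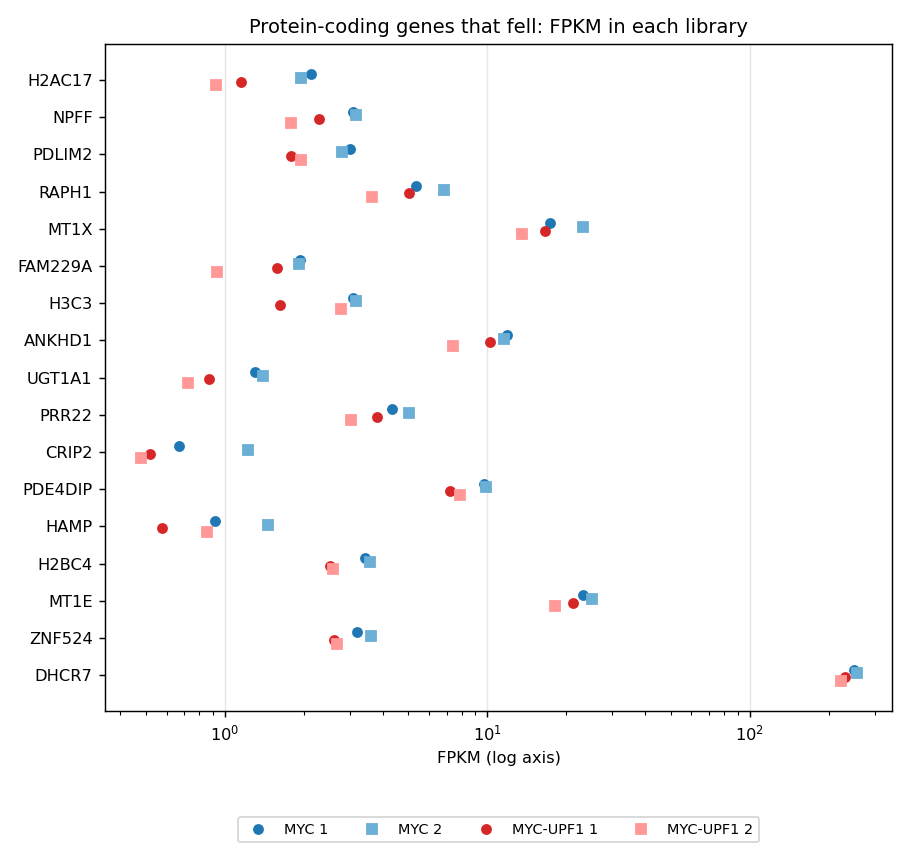
FPKM (x axis, log scale) of 17 protein-coding genes named among the falls, with 1 point per library and genes ordered by log2 difference. MT2A, whose groups overlap, is not drawn, so the MYC-UPF1 points lie left of both MYC points in every gene shown, and the gap is narrow in DHCR7 (223 and 232 against 250 and 256 FPKM).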

How the data were processed

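RNA-seq of Huh7 cells was analysed for the MYC and MYC-UPF1 groups, 2 libraries each, grouped by the treatment labels. The authors trimmed reads, aligned them to hg19 with HISAT (HISAT2 2.1.0 in the submitters' processing notes, which also name FastQC 0.11.7, Trimmomatic 0.38 and CASAVA) and ran StringTie 1.3.4d on an Illumina TruSeq stranded mRNA kit's paired reads. They deposited FPKM values per gene. Depth is unknown: among 1066 genes with low values in both MYC libraries, the commonest ratio covered 1.59%, so no whole reads were recovered. FPKM divides by length and library total, so a gene's value depends on the other genes and on how reads were split between overlapping entries.

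Here log2(FPKM + 1) was tested with limma 3.58.1 in R 4.3.3 (lmFit, eBayes with trend, two-sided), without a replicate block, for genes with a mean of at least 0.5 FPKM. Fold changes on this scale understate those of low genes. With 2 against 2 libraries, an exact permutation test cannot go below a p of 0.333. An unadjusted p of 0.05, the study's threshold, set the calls, and Benjamini-Hochberg values are given too. Classes (48 lists) were described by counts and medians with no test of a list. Both the genes covered and the lists were chosen with earlier results of these data known. Named genes were those the study names (some are not reported here), the 12 largest protein-coding rises and falls without overlap, up to 4 called members and the most abundant member of a class, and genes past an adjusted p of 0.05 in any fit, of which the larger part is given as a count. Others (JUN, EGR1, HSPA7 and uncalled class examples) were chosen after their values were seen. Symbols were matched to GENCODE on GRCh37 (15991) and RefSeq (16661). Tables and figures were made with pandas 2.3.3 and matplotlib 3.10.9 (Python 3.11.15).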

Additional observations from a re-analysis of the deposited data

How the results depend on the processing

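All 80 called genes that the naming rule selects kept their direction under every alternative run. This was largely fixed in advance, so it is not a test of the direction. Of all calls, 81 of 82 rises and 104 of 107 falls had groups without overlap, so leaving out 1 library could not reverse those. Other FPKM minimums, the replicate blocks and the fit of all 8 libraries left the estimate itself unchanged. DUSP1, RASD1, HSPA6 and UPF1 kept their call wherever they were tested. The counts moved. Rises and falls were 194 and 215 with no FPKM minimum, 22 and 27 at a minimum of 5 FPKM (fewer genes tested) and 234 and 199 with the GC and length trend removed. Leaving out single libraries gave 102 to 174 rises, 81 to 658 falls and 5 to 66 genes past the adjusted threshold, which 2 genes passed at a pseudocount of 0.1 and in the fit of all 8 libraries. In all, 99 genes passed it in any of 14 fits, 67 of them in 1 fit only. With the replicate number as a block, 74 genes rose, 96 fell and 20 passed the adjusted threshold. The numbers do not pair the libraries: deviations of same-numbered libraries correlated at -0.57. Pairing MYC 1 with MYC-UPF1 2 and MYC 2 with MYC-UPF1 1, chosen after seeing the data, gave 348 rises, 879 falls and 32 genes past the adjusted threshold. Except for the filters, the cause of these shifts was not tested. Depth is unknown, so counting error at low FPKM could not be set apart from other spread. With 2 libraries a group, a p that missed the threshold does not show that a class stayed the same.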
